A study of Mus musculus with 4 samples.

Results

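The unexposed offspring of the study were represented by 2 arrays, each hybridised with pooled splenocyte RNA of DBA/1 mice aged 3 weeks, the age of weaning. The male control pool held 4 animals and the female control pool 12, and the dams of both received normal drinking water. The series also holds a male pool of 4 and a female pool of 6 animals whose dams drank water with benzyl butyl phthalate (BBP), a plasticiser, from 1 week before mating until weaning. Each pool was measured once on the Clariom D mouse array, so that a level in unexposed cells rests on 1 male and 1 female value and not on replicates. A gene was taken as 1 transcript cluster with a single gene symbol (the cluster with the highest mean of the 2 control arrays where a symbol had several), and genes reaching a signal of 100 in both control arrays were ordered by their mean log2 signal. This gave 10257 of 30738 genes, or 33.4%. The rule used the signal levels themselves, and the order below is therefore a description without a test.

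The spleen filters blood and joins 2 compartments. The white pulp holds B cells in follicles and T cells around arterioles. The red pulp holds macrophages that take up old red cells, together with neutrophils and monocytes. In young mice the red pulp also makes red cells and granulocytes, which in adults is mainly a task of the bone marrow.

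Array signals of different genes depend on the probes of each cluster as well as on RNA, so the order is one of signal and not of molecules per cell. The deposited signals were on a linear scale. The median over the 10257 genes was 577 in the male and 563 in the female pool. A signal of at least 1000 in both arrays was found for 3719 genes (36.26%), of at least 10000 for 1142 (11.13%) and of at least 100000 for 355 (3.46%). The 100 highest genes held 34.6% of the summed signal in the male and 38.1% in the female pool. The minimum of 100 is not a detection limit. Of 5222 negative control features on the array, 30.9% in the male and 33.5% in the female pool lay at 100 or more, 25.1% did so in both, and their 95th percentile was 673 in the male and 671 in the female pool. In the 23 background features the signal ranged between 5.3 and 62.8 in the male and between 4.9 and 49.6 in the female pool. At a minimum set by the 95th percentile of the negative controls, a setting chosen after seeing the data, 4529 genes remained. Just above the minimum stood E2f5 with 100 in the male and 126.6 in the female pool, Hmgb1-rs17 with 112.7 and 100, and Cdkn2c with 118.2 and 100.1, in the same order of pools. Just below it stood Cenpo, with 99.9 in the male and 113.9 in the female pool, Igkv8-18 with 99.8 and 105.9, and Dtwd1 with 99.8 and 100.5. A further 377 genes reached 100 in the male pool alone and 240 in the female pool alone.

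**Figure D1:**
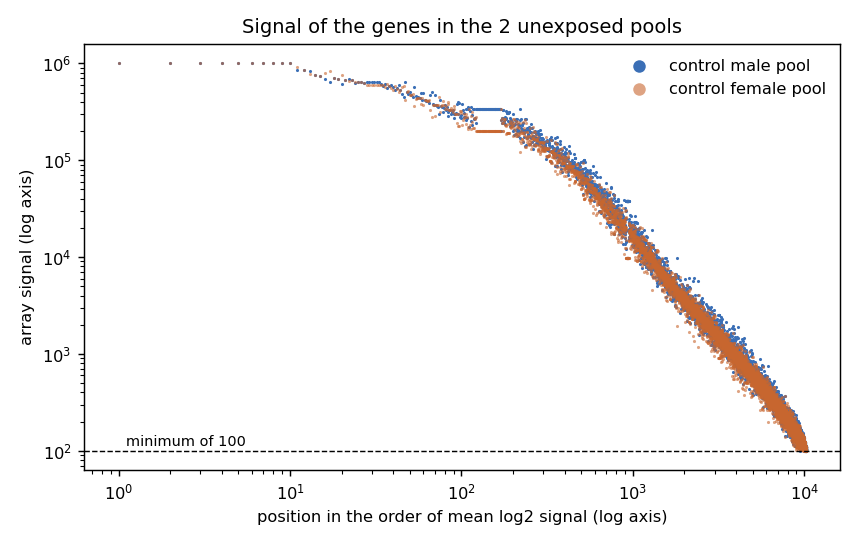
Signal of the 10257 genes (vertical log axis, arbitrary units) against their position in the order of mean log2 signal (horizontal log axis), with the control male pool in blue and the control female pool in orange. The curve starts on a plateau at the top value of 999969.3 and ends at the minimum of 100, and the flat stretch near position 122 is a set of 48 small nuclear RNA genes with the same signals.

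The top of the order was a ceiling. The highest value, 999969.3, was reached by 40 transcript clusters in both control arrays and by 36 of them in all 4 arrays of the series. Of the 40, 25 had no gene symbol, 6 had several and 9 had 1, and these last stood for 8 genes. They were Rn7s1 and Rn7s2, RNA components of the signal recognition particle, Rn7sk, which holds back the transcription elongation factor P-TEFb, the mitochondrial ribosomal RNA mt-Rnr1, the nuclear ribosomal RNA Rn28s1, the immunoglobulin heavy chain V segment pseudogene Ighv1-2, and Gm10925 and Gm26202, known by a number only. Levels at this value have no order among themselves, and a difference between pools above it cannot be seen. Next to the ceiling, many high genes carried exactly the same value in several arrays. Of the 388 genes with a mean signal above 100000, 30 (7.73%) had 1 value in both control arrays and 21 had 1 value in all 4, against 0.16% to 0.46% with 1 value in both control arrays in the lower ranges of signal. Among them were Serinc3 with 669990 in each of the 4 arrays, Ighm with 666093, the elongation factors Eef1a1 with 443790 and Eef2 with 411791, Rpl4 with 416997, Pabpc1 with 330536 and Actb with 368610. No difference between pools could be read for these genes. Actb (beta-actin) was used by the study with Rplp0 as a reference in RT-PCR, and Rplp0 had 8942 in the male and 7835 in the female control pool.

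Protein-coding genes made up 72.64% of the genes but few of the highest. Among positions 1 to 100, 13 genes were protein-coding and 56 were pseudogenes, and 18 belonged to small RNA classes. After position 300 and up to 1000 the protein-coding share was 23.7%, and beyond position 3000 it was 80.7%. Of the 100 highest genes, 53 are known by a number only and 14 are named pseudogenes of ribosomal proteins. Among these 14 were Rps23-ps1 with 847530 and Rps23-ps2 with 748711 in both control pools, and Rpl18-ps1, Rpl10-ps1, Rpl10-ps6, Rpl21-ps8, Rpl21-ps10, Rpl17-ps4, Rpsa-ps2 and Rpl28-ps3, with signals between 422990 and 609196. Of 219 measured pseudogenes with such names, 177 passed the minimum. Pseudogenes of this kind are near copies of the coding gene, so that their signal and that of the parent cannot be told apart here. By type, the minimum was passed by 38.7% of the 19253 protein-coding genes, 34.5% of 4441 pseudogenes, 70.4% of 304 antigen receptor V segments, 95.2% of 62 ribosomal RNA genes, 25.4% of 955 small nucleolar RNA (snoRNA) genes and 3.5% of 3345 long noncoding RNA genes. Many of the RNA genes were not independent measurements, since 248 genes shared all 4 signals with another gene. The largest such sets were 48 small nuclear RNA genes with 341801 in the male and 201909 in the female control pool, 33 snoRNA genes with 202.5 and 108.3, and 32 genes of 5S ribosomal RNA with 37524 and 9677, in the same order of pools.

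**Figure D2:**
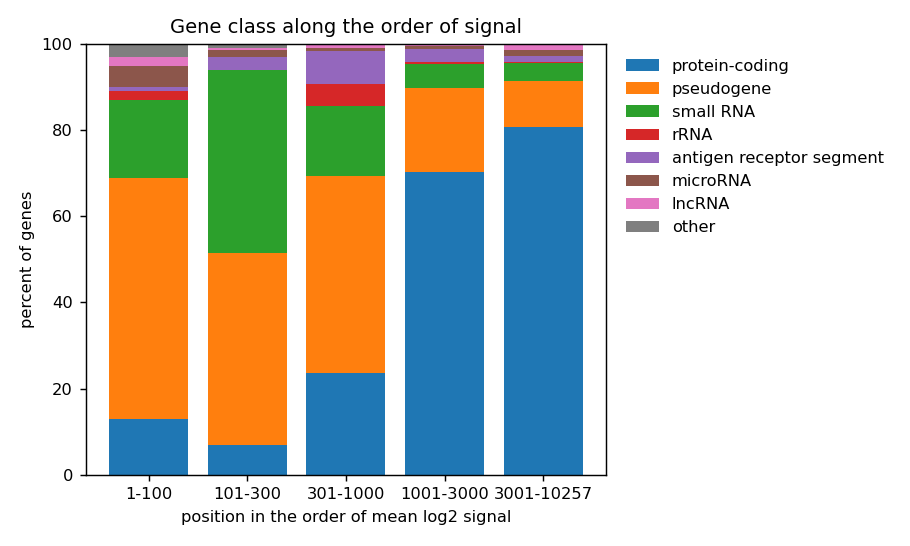
Percent of genes of each class (vertical axis, 0 to 100) in 5 stretches of the order of mean log2 signal (horizontal axis), ordered over both control pools. Protein-coding genes are 13% of positions 1 to 100 and 80.7% of positions beyond 3000.

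Among noncoding RNAs, Malat1, a nuclear long noncoding RNA, had 278414 in the male and 321127 in the female pool, while Neat1, which builds paraspeckles, had 288 and 464 and Kcnq1ot1, an imprinted transcript, 111.7 and 130.8. The processing RNAs Rmrp (489451 in the male and 368643 in the female pool) and Rpph1 (221905 and 144381), the snoRNAs Snord49b (641784 and 414468) and Snord61 (505613 and 281540) and the spliceosomal U1 gene Rnu1a1 (643374 and 601618) stood in the upper part of the order. Of 921 measured microRNA genes, 123 (13.4%) passed the minimum, and a mature sequence was held by the RefSeq table for 89 of these. The mature sequences of the 5 with the highest signal are shown because all 5 stood among the 100 highest genes. Capitals mark the seed (bases 2 to 8), and the coordinates are those of assembly GRCm38.p6.
mmu-miR-3473a, chrX:162874920-162874937, minus strand: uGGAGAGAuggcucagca
mmu-miR-3470b, chr16:44013885-44013905, plus strand: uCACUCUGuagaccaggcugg
mmu-miR-703, chr5:98475616-98475636, minus strand: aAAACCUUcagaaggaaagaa
mmu-miR-6240, chr5:114851973-114851998, plus strand: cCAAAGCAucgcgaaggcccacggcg
mmu-miR-1954, chr2:32652342-32652362, plus strand: aCUGCAGAgugagacccuguu

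No 2 of these 5 share a seed. Their genes had 999968 (Mir3473a), 687281 (Mir3470b), 469085 (Mir703), 366724 (Mir6240) and 341849 (Mir1954) in the male pool. In the female pool they had 999968, 788764, 333014, 358556 and 373690 in the same order. Total RNA was hybridised, and whether the mature microRNA, its hairpin or a longer transcript gave a signal is not shown by the values. For Mir3473a the kept cluster carries the number of chromosome 15, although the gene lies on the X chromosome. The cluster of Mir3473a numbered for the X chromosome had 45.9 in the male and 60.7 in the female pool. Mir3470b differed likewise, with 127362 and 148900 in the cluster of its own chromosome 16 and the values above in a cluster of chromosome 7. Such a mismatch was found for 16 of 121 microRNA genes and for 33 of 7439 protein-coding genes. Mir142, a microRNA gene of blood cells that was picked after its value was seen, had 2267 in the male and 839 in the female pool, at position 3305, with 1 cluster on its own chromosome. Its 2 mature arms are printed for comparison with the 5 above.
mmu-miR-142a-5p, chr11:87756867-87756887, plus strand: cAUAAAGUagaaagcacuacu
mmu-miR-142a-3p, chr11:87756903-87756925, plus strand: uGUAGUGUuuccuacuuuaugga

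Of the 100 highest genes, 13 were protein-coding. Hspa8, a constitutive chaperone, had 853467 in the male and 910354 in the female pool, although its kept cluster carries the number of chromosome 6 and the gene lies on chromosome 9. The mitochondrial ND3, a subunit of respiratory complex I, had 838057 and 767263, and H2ac10, a replication-dependent histone H2A, had 510244 and 473712. S100a8, a calcium-binding protein of neutrophils, had 412754 in the male and 412452 in the female pool. B2m, the light chain of MHC class I, had 303422 and 344414. Lyz2, lysozyme of myeloid cells, stood outside the 100 highest at position 107, with 260747 and 299868. Rpl12 had 463247 and 431119, from a cluster numbered for chromosome 10 while the gene lies on chromosome 2. Among the 193 protein-coding genes of the 1000 highest, 9 had a kept cluster numbered for another chromosome. For Rpl41 the cluster of its own chromosome had 923 in the male and 652 in the female pool, against 257035 and 159613 in the kept one, and for Tuba1c the own cluster had 36334 and 35543, against 175832 and 168598. The position of such a gene therefore rests on which cluster is taken.

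The start regions of the highest protein-coding genes are shown because housekeeping and tissue-restricted genes differ in promoter type, which the order by signal did not use. Each runs from 40 bases before to 20 after the start that RefSeq gives (assembly GRCm38.p6), on the strand of the gene. Capitals mark TATAAA before the start, or a run of at least 8 bases of C and T; the 2 may share bases, as in S100a8. Shown are the 8 highest protein-coding genes whose cluster lay on the gene's own chromosome and for which the table holds a promoter. It holds none for Actb, Pabpc1 and the mitochondrial ND3, ND2 and COX1. Under the same conditions follow the highest B cell, T cell and erythroid marker. Rps7 and Rps26, the next 2 ribosomal proteins after Rpl4, come last. No promoter was held for Cd79b, Ms4a1, Cd8b1, Car2 and Car1, whose signals were higher than those of the markers shown.
Serinc3, chr2:163645124-163645183, minus strand: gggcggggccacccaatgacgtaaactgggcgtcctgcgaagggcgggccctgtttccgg
H2ac10, chr13:23533835-23533894, plus strand: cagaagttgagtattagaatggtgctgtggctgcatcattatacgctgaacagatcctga
Eef1a1, chr9:78481705-78481764, minus strand: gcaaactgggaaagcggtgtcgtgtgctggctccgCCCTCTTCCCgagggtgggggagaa
Rpl4, chr9:64173347-64173406, plus strand: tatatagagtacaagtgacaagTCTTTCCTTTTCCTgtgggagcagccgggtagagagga
S100a8, chr3:90669031-90669090, plus strand: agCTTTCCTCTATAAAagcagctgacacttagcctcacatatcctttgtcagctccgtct
Eef2, chr10:81176591-81176650, plus strand: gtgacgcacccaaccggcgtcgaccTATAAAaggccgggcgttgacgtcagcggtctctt
B2m, chr2:122147647-122147706, plus strand: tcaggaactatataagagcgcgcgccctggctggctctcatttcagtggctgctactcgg
Lyz2, chr10:117282253-117282312, minus strand: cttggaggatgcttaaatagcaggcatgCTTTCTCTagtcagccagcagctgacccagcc
Cd37, chr7:45238820-45238879, minus strand: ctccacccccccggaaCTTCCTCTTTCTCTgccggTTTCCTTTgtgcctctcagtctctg
Cd3e, chr9:45009592-45009651, minus strand: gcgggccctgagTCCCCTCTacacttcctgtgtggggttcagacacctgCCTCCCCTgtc
Alas2, chrX:150547377-150547436, plus strand: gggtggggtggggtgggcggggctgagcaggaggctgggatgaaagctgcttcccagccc
Rps7, chr12:28635934-28635993, minus strand: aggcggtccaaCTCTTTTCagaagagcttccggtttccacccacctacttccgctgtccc
Rps26, chr10:128626487-128626546, minus strand: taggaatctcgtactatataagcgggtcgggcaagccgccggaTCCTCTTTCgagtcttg

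A promoter sequence was held for 6170 of the 7451 protein-coding genes that passed the minimum and for 9436 of the 11802 that did not. The median ratio of observed to expected CpG over 300 bases was 0.80 in the genes that passed, against 0.37 in the genes that did not, and the median GC content was 61.0% against 53.3%. TATAAA in the 40 bases before the start, on the strand of the gene, was held by 1.2% of the promoters that passed, 4.3% of those that did not and 2.5% of all 27025 promoters in the table. On either strand of the whole 300 bases the shares were 7.1%, 17.0% and 14.2% in that order. Within the genes that passed, TATAAA before the start was held by 2.0% of the 1516 promoters among the 1863 highest genes, by 0.6% to 1.4% in the next 3 groups of this size, and by 4 of 71 promoters of the 100 highest protein-coding genes. A run of C and T was found in 24.0% of all promoters and in 23 of 71 of the 100 highest. Among genes listed by their symbol as cytosolic ribosomal proteins it was found in 16 of 31 promoters. It was not particular to them, with 5 of 8 promoters of T cell markers and 3 of 7 of B cell markers. Neutrophil markers had it in 4 of 12, erythroid markers in 3 of 13 and histones in 9 of 47. Such a run at the start is a known feature of ribosomal protein genes. Neutrophil markers had a median CpG ratio of 0.15, T cell markers 0.20 and erythroid markers 0.27. These are descriptions of the letters in the window, with no statement on the factors that bind there.

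Markers of B cells had the highest median of the lymphoid lists. All 10 B cell genes measured passed the minimum, with a median of 22402 in the male and 22454 in the female pool, and the median gene stood at percentile 97.3 of all genes. Cd79b, a signalling chain of the B cell receptor, had 87742 in the male and 77622 in the female pool, Ms4a1 (CD20) 62482 and 72059, Cd37 52297 and 64028, and Cd22 23741 and 26482. The lowest were the kinase Blk with 8209 and 9604 and the lineage factor Pax5 with 3674 and 3875. In these bulk pools, fewer cells of a type and less RNA per cell cannot be told apart, for this and every other cell type. Of 12 T cell genes measured, 11 passed, with medians of 1146 in the male and 1058 in the female pool. Cd8b1 had 11665 and 20571, Cd3e 11647 and 16262, Cd4 4616 and 9797 and Cd3g 1900 and 2324. The lowest T cell genes were Zap70 with 186 and 179, and Cd247, which fell short of the minimum with 83.1 and 84.7. Natural killer genes passed in 8 of 10 cases, led by Nkg7 (2648 in the male and 2980 in the female pool), Gzma (2166 and 2176) and Klrd1 (2362 and 1884), with Klre1 (60.1 and 59.4) and Klrb1c (49.8 and 60.1) below it.

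Of 13 listed immunoglobulin constant regions, 4 were measured under a single symbol and 9 were not. Ighm (IgM) stood at 666093 in both pools, while Ighg2b had 160 in the male and 153 in the female pool, Ighg1 107 and 179 and Ighe 31.5 and 45.7. The kappa J segment Igkj3 had 21923 and 33471. Of the V segments, pseudogenes included, 93 of 117 heavy chain (Ighv) and 72 of 86 kappa (Igkv) genes passed the minimum, against 38 of 88 T cell receptor alpha (Trav) and 14 of 21 beta (Trbv) genes. A signal of at least 10000 in both pools was found for 34 Ighv and 32 Igkv genes and for 0 of the Trav and Trbv genes. The highest functional V segments were Ighv10-1 with 220401 in the male and 337595 in the female pool and Igkv4-54 with 228997 and 229582, and the highest T cell receptor V segment was Trbv13-2 with 1218 and 1727. Since V segments of a family resemble each other, their single values are uncertain. The constant regions of the T cell receptor had no cluster with a single symbol except Trgc3, with 2371 and 2521. Plasma cell genes were divided. Jchain, which joins IgM pentamers, had 8365 in the male and 6176 in the female pool, Mzb1 6610 and 3107, Irf4 4071 and 4162 and Xbp1 2553 and 2873, while Tnfrsf17 had 45.1 and 44.3 and Sdc1 (CD138) 42.2 and 36.2. Genes of lymphocyte progenitors passed in 2 of 7 cases, Vpreb3 with 1351 and 1042 and Dntt with 238 and 208, and the surrogate light chain gene Vpreb1 had 30.1 and 26.7.

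Among myeloid lists, those of neutrophils and monocytes passed in full. All 12 neutrophil genes passed the minimum, with a median of 5725 in the male and 7505 in the female pool. S100a9, the partner of S100a8, had 263227 and 231507, the granule proteins Ngp 81838 and 130630 and Ltf (lactoferrin) 16034 and 29106, and the granule proteases Elane 586 and 1141 and Prtn3 150 and 231. Of monocyte genes all 8 passed. Ly6c2 had 67226 in the male and 90767 in the female pool, Csf1r 9487 and 10892 and Treml4 2125 and 2626, and the lowest were Cx3cr1 with 149 and 182 and Fcgr4 with 127 and 127. Red pulp macrophage genes passed in 11 of 12 cases, with the heme-degrading enzyme Hmox1 at 20367 and 18804, Vcam1 at 20037 and 16233, C1qb at 13253 and 11746 and the iron exporter Slc40a1 at 3207 and 3875. Cd5l had 149 in the male and 91.3 in the female pool. In contrast, all 3 markers of marginal zone macrophages stayed below the minimum (Marco 76.3 and 58.8, Siglec1 65.9 and 66.6, Cd209b 42.4 and 46.7). Dendritic cell genes passed in 6 of 10 cases, from Cd209a with 1401 and 1409 down to Batf3 with 32.5 and 30.2 and Zbtb46 with 20.7 and 20.3. Eosinophil genes passed in 4 of 6 cases, basophil and mast cell genes in 4 of 7 and megakaryocyte and platelet genes in 1 of 7, Ppbp with 235 and 160.

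Erythroid genes passed the minimum throughout, 18 of 18 measured of 25 listed, with a median of 1665 in the male and 612 in the female pool. Carbonic anhydrases led, Car2 with 119780 in the male and 75967 in the female pool and Car1 with 73080 and 58091. Alas2, the erythroid enzyme that starts heme synthesis, had 53454 and 17096, and Slc4a1, the anion exchanger band 3, had 27926 and 16419. The erythroid transcription factors Klf1 (214 and 174) and Gata1 (148 and 137) were lowest. All 4 embryonic globin genes lay between 11.3 and 28.6. Proliferation genes passed in 12 of 13 cases. Mki67, a marker of cycling cells, had 52492 in the male and 52903 in the female pool, Pcna 16374 and 11947, Top2a 7677 and 7013 and Ccna2 5022 and 3759, with Birc5 at 73.4 and 59.2.

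Genes of other cells and tissues were mostly at the bottom. Stroma (0 of 9 genes passing, 13.6 to 42.2), mesothelium (0 of 5), liver (0 of 6), brain (0 of 6), skeletal muscle (0 of 6), epidermis (0 of 5) and adipose tissue (0 of 4) did not reach 100. Alb had 16.5 in the male and 17.7 in the female pool, Col1a1 26.4 and 24.9 and Acta1 34.0 and 36.1. The exceptions were Cela1 in the pancreas list, with 194 and 183, and Pecam1 (3187 and 3188) and Stab2 (2816 and 4207) in the endothelial list, in which Cdh5 had 32.7 and 27.5. Pecam1 is also carried by leukocytes.

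**Figure D3:**
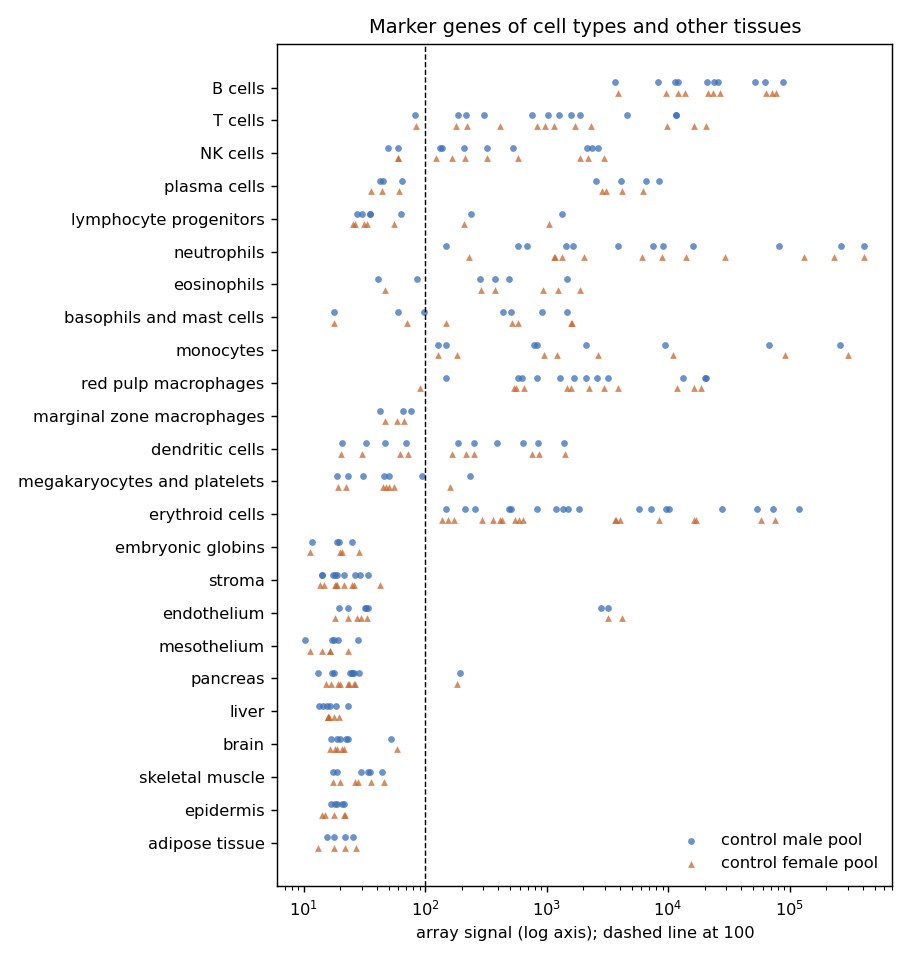
Signal (horizontal log axis, arbitrary units) of each measured gene in 24 lists of cell types and other tissues, with circles for the control male pool above triangles for the control female pool and a dashed line at the minimum of 100. All B cell, neutrophil, monocyte and erythroid genes lie right of the line in both pools, and all stroma, mesothelium, liver, brain, skeletal muscle, epidermis and adipose genes lie left of it.

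Antigen presentation genes passed without exception, 8 of 8 for MHC class I and 11 of 11 for class II. H2-D1 had 35289 in the male and 32485 in the female pool and H2-K1 23952 and 22187, while the peptide transporters Tap1 (1599 and 1938) and Tap2 (539 and 585) were lowest. In class II, the protease Ctss had 58293 and 47749, H2-Ab1 23245 and 28649 and the regulator Ciita 6823 and 7661, and H2-Eb1 had 763 and 492. Homing receptors passed in 9 of 9 cases, with Cxcr4 at 31380 and 31351, Itgal at 12585 and 21566 and Ccr7 at 14909 and 18228, and with Cxcr3 at 125 and 165. Immediate-early genes passed in 12 of 12 cases, with Dusp1 at 22714 in the male and 50166 in the female pool, Zfp36 at 11470 and 13869, Klf6 at 7147 and 7285 and Fos at 6158 and 12838. Of 17 cytokine genes only Tgfb1 (4663 and 4584), Il1b (1340 and 2120), Il12a (486 and 444), Il18 (138 and 126) and Tnf (122 and 100) passed, and Il17a had 14.1 and 13.6 and Il21 14.1 and 16.9. Genes listed by their symbol as cytosolic ribosomal proteins passed in 34 of 36 measured cases of 82 listed. They spread from Rpl12, Rpl4, Rpl41 and Rps7 (207439 and 176144) down to Rpl31 (95.5 and 100.5). Lowest was Rps23rg1 (56.6 and 50), which the list holds for its symbol alone. Glycolysis genes passed in 9 of 9 cases, between Pgk1 (10517 and 9874, from a cluster numbered for chromosome 12, with 2541 and 2799 in that of its own X chromosome) and Hk2 (151 and 179).

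By chromosome, between 27.8% (chromosome 7) and 45.9% (chromosome 12) of the measured autosomal protein-coding genes passed, against 29.0% of 770 on the X and 0 of 59 on the Y chromosome. Genes of the Y chromosome could not pass, because the rule asked for 100 in the female pool as well. Eif2s3y had 607 in the male and 40.5 in the female pool, Kdm5d 327 and 22.6 and Uty 264 and 26.2, while Xist, which silences an X chromosome in female cells, had 29.1 and 67277. Both pools thus matched their labelled sex.

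The male and the female control pool were alike over most of the range. Across genes, which are not independent replicates, log2 signals correlated with Pearson's r of 0.991 and Spearman's rho of 0.985, and 89.7% of genes lay within 1.5-fold. With 1 array per sex, a difference has no replicate check, and sex cannot be told apart from the pool, whose animals numbered 4 against 12. At least 2-fold higher in the male pool were 204 genes (1.99%), and at least 2-fold lower 49 (0.478%). With quantile normalization these counts were 160 and 88, and with each set of identical signals counted once 165 and 49. The counts that follow include genes with identical signals. The 59 ribosomal RNA genes that passed the minimum held 18 distinct sets of signals, 1 of them shared by 32 genes. Of the 204 genes, 50 were snoRNA, 48 ribosomal RNA, 43 protein-coding and 37 pseudogenes. The ribosomal RNA genes, mostly copies of 5S RNA, had a median difference of 1.73 between male and female on the log2 scale in the BBP pools and of 1.96 in the control pools, and the snoRNA genes 0.54 in the BBP and 0.71 in the control pools. Over all genes the median was -0.05 in the BBP and 0.02 in the control pools. Of the 204 genes, 82 were also at least 2-fold higher in the male of the 2 BBP pools, which the rule did not use, and 0 of the 43 protein-coding ones were. Of the 49 lower genes, 4 were at least 2-fold lower there. Over all 10257 genes, 363 (3.54%) were at least 2-fold higher and 29 (0.283%) lower in the male BBP pool, and of the 7451 protein-coding genes 2 (0.0268%) were higher, so that 0 of 43 lies near the share over all protein-coding genes.

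Among protein-coding genes the largest male over female ratio was that of Rsad2, an interferon-induced antiviral enzyme, with 6009 in the male and 1369 in the female control pool. Its log2 difference was 0.64 in the BBP and 2.13 in the control pools. Rpl22l1 (1918 and 550), Tomm7 of the mitochondrial import pore (893 and 267), Ndufb11 of complex I (1265 and 423) and Ube2o (2867 and 960), a ubiquitin ligase active in reticulocytes, followed. Alas2, Rhd, the Rhesus antigen (1835 and 587), and Trim10 (1360 and 432) belong to the erythroid list. Over all 10257 genes, 5458 were higher in the male control pool. Of the 18 erythroid genes, 8 were higher in the male BBP pool, 0 of them at least 2-fold (median log2 difference -0.07), and 18 were higher in the male control pool, 7 of them at least 2-fold (median 0.77). Small nuclear RNA genes were also higher in the male, 349 of 367 in the control pools, with a median of 1.27 in the BBP and 0.64 in the control pools. The part of this class, of the ribosomal RNA and of the snoRNA genes in the erythroid difference was not tested. Lower in the male control pool were Mrgpra2a (280 in the male and 725 in the female pool), the coagulation factor F5 (644 and 1659), the X-linked histone demethylase Kdm6a (1563 and 4023), the eosinophil granule protein Prg2 (494 and 1246), the lipoxygenase Alox15 (376 and 939), Fcnb (391.6 and 936.5), the integrin Itgam (2631 and 6172) and the granule enzyme myeloperoxidase, Mpo (3875 and 8929). Kdm6a, which escapes X inactivation, differed by -1.36 in both the BBP and the control pools, and Prg2 by -1.68 in the BBP and -1.33 in the control pools. Mpo differed by -0.13 in the BBP and -1.20 in the control pools. Eosinophil genes were lower in the male in 4 of 4 cases in both pairs of pools. Neutrophil genes had a median difference of -0.03 in the BBP pools and of -0.65 in the control pools, where 8 of 12 were lower in the male, 1 of them at least 2-fold. Of 7223 autosomal protein-coding genes, 3580 were lower in the male control pool. The difference of 8 of 12 from this share was not tested. Heavy chain V segments had a median of -0.41 in the BBP pools and of -0.56 in the control pools, where 88 of 93 were lower in the male, 7 of them at least 2-fold. Kappa V segments had a median of -0.36 in the BBP pools and 0.17 in the control pools.

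**Figure D4:**
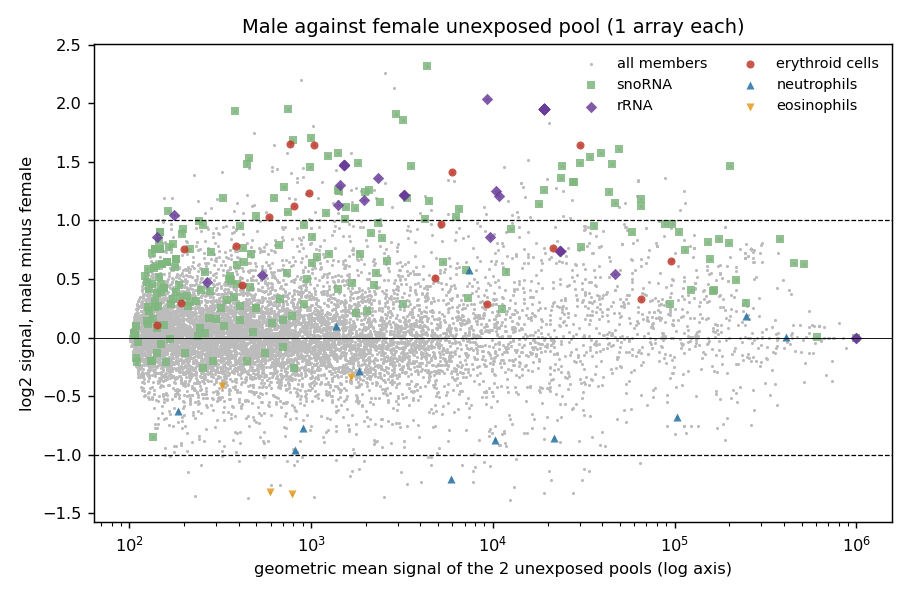
Difference in log2 signal, control male minus control female pool (vertical axis), against the geometric mean signal of both pools (horizontal log axis) for 10257 genes in grey, with snoRNA, ribosomal RNA, erythroid, neutrophil and eosinophil genes in colour and dashed lines at 2-fold. All 18 erythroid genes lie above 0, and the ribosomal RNA genes reach from 0 at the top value to the upper part of the plot.

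Taking the 2 male against the 2 female pools of the series with exposure as a term (limma, Benjamini-Hochberg adjustment over the 10257 genes, 1 residual degree of freedom), 36 genes were higher in the male (0.351%) and 0 (0%) lower, with 945 and 525 at an unadjusted p under 0.05. The 36 calls rest on 5 distinct sets of signals. The first set was shared by 32 genes of 5S ribosomal RNA, with 27175 in the male and 8182 in the female BBP pool and 37524 and 9677 in the control pools (log2 difference 1.84 ± 0.15, SE; adjusted p = 0.0301). The other 4 were Snora62, a snoRNA (1.40 ± 0.12, SE; adjusted p = 0.0419), and Gm25683, Gm23647 and Gm7846. With each set of identical signals entered 1 time, 0 genes passed in limma, with 812 higher and 544 lower at an unadjusted p under 0.05. Of the protein-coding genes named above, Prg2 (-1.51 ± 0.15, SE) and Kdm6a (-1.36 ± 0.13, SE) came closest, with adjusted p of 0.0539 and 0.0568 in limma. Both were named for their ratio in the control pools, which the fit also used. Their values in limma are therefore no independent check. Of the 18 erythroid genes 0 passed in limma, with 2 at an unadjusted p under 0.05, and Alas2 had 0.97 ± 0.34 (SE; adjusted p = 0.315). Of the 12 neutrophil genes 0 passed in limma, with 3 at an unadjusted p under 0.05. Of the 11 T cell genes 0 passed in limma either, with 5 at an unadjusted p under 0.05. T cell genes had a median log2 difference of -0.66 in the BBP and -0.29 in the control pools. Higher in the male were 0 of the 11 in the BBP and 2 in the control pools. On simulated data, the same fit called none of the changed genes when residuals of these pools, shuffled over genes, set the spread. Shuffling removes any link of spread to signal level, so the simulation differs from the data, where 36 genes were called. With 1 residual degree of freedom, a count of 0 for these lists cannot tell an absent difference from a missed one.

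The order of the unexposed pools was largely shared by the pools from BBP-exposed dams, which the rule did not use. Of the 10257 genes, 96.0% also had at least 100 in both BBP arrays. Of the 100 highest genes, 81 were among the 100 highest of the BBP male and 89 among those of the BBP female array, and 77 in both. Of the 500 highest, 473 and 463 were shared in the same order of arrays. Snord61 stood at position 173 in the BBP male array, 96 in the BBP female array and 67 in the order of the control pools, and B2m at 165, 84 and 87. Below the minimum in both BBP arrays were 162 of the genes, and 111 genes reached it in both BBP arrays and in neither control array.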

How the data were processed

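Splenocyte RNA of 4 pools was measured on Clariom D mouse arrays. From the scanned fluorescence the authors derived signals with MAS 5.0 (given as MAS5 in the processing notes of the submitters), followed by scaling between arrays. The deposited signal intensities are linear, neither logged nor centred. No source used here gives the scaling target. Of 72688 features, 6732 are controls and 65956 transcript clusters. Clusters with no symbol (33142) or several (1522) were left out. Symbols came from the platform's annotation and were updated through RefSeq (GRCm38.p6), which held 30736 of 30738 genes. The chromosome of a cluster was read from its identifier.

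The members and gene lists were chosen with earlier results of these data known. The genes named were drawn from the sets that follow, and not every gene of a set is printed. The sets were the 30 highest genes without a numbered name (31 numbered ones were passed over) and genes at the top value. Others were the 4 highest and 2 lowest measured genes of each list and the 5 highest of each noncoding type. Further sets were the 8 protein-coding genes at each end of the male over female ratio and 3 genes on each side of the minimum. Actb and Rplp0 were added, and any other gene was picked after its values were seen. The male and female pools were compared in limma 3.58.1 under R 4.3.3, on log2 signals, with sex and exposure as terms, a variance trend and an adjusted p threshold of 0.05. On simulated data the fit recovered the fold sizes. It called none of the changed genes when the spread was set by residuals of these pools shuffled over genes, a setting that differs from the data. Each pool was measured once, and the number of arrays limits the precision. Alternatives covered scaling, the minimum, the choice of cluster, identical signals, a pseudocount of 50, the model and each pool left out. Python 3.11.15, numpy 2.4.6, pandas 2.3.3, scipy 1.17.1 and matplotlib 3.10.9 were used.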

Additional observations from a re-analysis of the deposited data

Results flagged for a closer look

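For 2 of the 16 named genes the difference between male and female pools had the opposite sign in the BBP and in the control pools. Trim10 differed by -0.21 in the BBP and by 1.65 in the control pools on the log2 scale, and F5 by 0.04 in the BBP and by -1.36 in the control pools. Each rests on 1 array per pool, and the difference between both pairs was not tested.

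Signal was also found outside the genes with a single symbol. At 100 or more in both control arrays were 4354 of 33142 clusters with no symbol (13.1%), of which 25 were at the top value, and 628 of 1522 clusters with several symbols (41.3%), of which 6 were at the top value. The same level was reached by 25.1% of the negative control features.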

How the results depend on the processing

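The number of genes was 10062 to 12867 with other scaling, another choice of cluster, identical signals counted once and a minimum of 50, and 7853 with a minimum of 200. It was 30738 with no minimum and 4529 at the 95th percentile of the negative controls, an alternative chosen after seeing the data. With the control male pool left out it was 10497 and with the control female pool left out 10634; of the 100 highest genes these settings kept 95 and 82. The number of lists with a median of at least 100 was 25 and became 25 and 26 without the same pools. Of the highest genes, 89.2% of 500, 87.0% of the 100 highest protein-coding ones and 77% of 100 overall were shared with both BBP arrays (95% exact interval of the last 67.5 to 84.8, for counting error only). In the control pools 204 genes were higher and 49 lower in the male; these counts were 160 and 88 with quantile normalization, 43 and 21 for protein-coding genes, 778 and 279 at 1.5-fold and 51 and 0 at 3-fold. The 36 genes higher in the male in limma became 0 with quantile normalization (754 at an unadjusted p under 0.05), a minimum of 200 (742), identical signals counted once (812), no exposure term (389) and each pool left out together with that term (0 in all 4 cases, 166 to 541 at an unadjusted p under 0.05). The 0 lower genes became 1 with a minimum of 50, without the trend and with robust variances. The smallest adjusted p in limma was 0.0301 over all 10257 genes and 0.137 with identical signals counted once. The cause of these changes was not tested. The exposure term of limma pairs the male and female pool of each exposure, and the setting without it is the unpaired fit.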
